A study of Mus musculus with 9 samples.

Results

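The 8 folate one-carbon enzyme genes Shmt1, Shmt2, Mthfd1, Mthfd1l, Mthfd2, Mthfd2l, Aldh1l1 and Aldh1l2 were followed in primary mouse SVF cells, the non-adipocyte cells of adipose tissue from which preadipocytes are grown. The genes were chosen by name, as the cytosolic and mitochondrial enzymes that load, oxidise and release folate-bound carbon. All 8 were among the 32285 gene identifiers counted, and all 8 were among the 17173 genes with enough counts to be tested. RNA was measured in 3 groups of 3 wild-type libraries, which the labels call biological replicates: cells differentiated for 6 days with mizoribine (MIZ), an inhibitor of inosine monophosphate dehydrogenase on the guanine branch of purine synthesis, cells differentiated for 6 days with vehicle, and undifferentiated cells. The dose of 25 µM MIZ is the one that a supplementary legend gives for the RNAseq, and the cells came from subcutaneous white adipose tissue of mice 4 to 6 days old. The labels do not tie libraries to single animals, so the p-values measure the spread between these 9 samples. MIZ cells were compared with vehicle cells for what the inhibitor did during differentiation. Vehicle cells were compared with undifferentiated cells for differentiation together with its medium. MIZ cells were compared with undifferentiated cells for where treated cells stood relative to the starting cells. By the paper's methods, induction changed the base medium and added insulin, dexamethasone and IBMX, then troglitazone, rosiglitazone and triiodothyronine. Differentiation and these changes of medium cannot be told apart in comparisons with undifferentiated cells. The 3 comparisons share libraries and are therefore not independent of each other.

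Folate carries single carbon units between amino acid and nucleotide metabolism. In mitochondria, serine gives up a carbon to tetrahydrofolate (THF), the carbon is oxidised and it leaves as formate. In the cytosol formate is reattached to folate and used for purine rings, thymidylate and methionine, and the cytosolic enzymes can also run the route from serine directly. Formyl-THF can instead be oxidised to carbon dioxide, with reduction of NADP+ to NADPH, and in adipocytes NADPH is used for the synthesis of fatty acids.

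Libraries held 28760721 to 55288455 counts, and the members had at least 95 counts in every library. Although the labels give the tissue of all 9 libraries as adipocytes, the summed level of 10 adipocyte markers was 2235 to 2547 CPM (counts scaled to a common library size) in MIZ cells, 20400 to 21570 in vehicle cells and 716 to 806 in undifferentiated cells. Against vehicle cells, 9 of 9 tested adipocyte markers were lower in MIZ cells, and the tenth, Lep, had too few counts. Against undifferentiated cells, all 9 were higher in MIZ cells. A few genes carry these sums, and Lpl averaged 1235 CPM in MIZ cells, 5941 in vehicle cells and 673 in undifferentiated cells. Smooth muscle and pericyte markers mostly rose in MIZ against vehicle cells, where 6 of 7 were higher and 1, Cspg4, was lower. Their sums were 6604 to 8659 CPM in MIZ cells, 188 to 223 in vehicle cells and 766 to 907 in undifferentiated cells. Most of the sum in MIZ cells came from Acta2 and Tagln, which averaged 3622 and 3242 CPM there. The sum of 10 preadipocyte and stromal markers was 8025 to 9966 CPM in MIZ cells, 4013 to 4708 in vehicle cells and 18030 to 19440 in undifferentiated cells, with 5 of 10 higher, 1 lower and 4 not past the threshold in MIZ against vehicle cells. Schwann cell markers summed to 44.0 to 61.6 CPM in MIZ cells, 17.8 to 20.5 in vehicle cells and 25.9 to 30.5 in undifferentiated cells, with 3 of 5 higher, 1 lower and 1 not past the threshold in MIZ against vehicle cells. Leukocyte markers summed to 545 to 742 CPM in MIZ cells, 364 to 624 in vehicle cells and 1329 to 1472 in undifferentiated cells, with the T cell marker Cd3e at 0 counts in every library. In MIZ against vehicle cells 2 of 7 tested were higher, 0 were lower and 5 did not pass. Adgre1 alone averaged 399 CPM in MIZ cells and 191 in vehicle cells. Endothelial markers summed to 4.94 to 5.37 CPM in MIZ cells, 8.43 to 10.4 in vehicle cells and 79.3 to 101 in undifferentiated cells, and mesothelial and myogenic markers to at most 16.6 CPM in any library. The part of such cell populations in the differences below was not tested, and in bulk RNA fewer cells of a type and less RNA per cell cannot be told apart. Beside these marker counts, 35.9% of all tested genes were higher and 35.1% lower in MIZ than in vehicle cells. Against undifferentiated cells, 33.7% were higher in MIZ cells.

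In MIZ cells, the 8 genes split. Aldh1l1 and Shmt1, both cytosolic, were 13.7-fold and 6.00-fold lower than in vehicle cells and also lower than in undifferentiated cells. Mthfd1, also cytosolic, overlapped between MIZ and vehicle libraries and was 1.51-fold higher in MIZ than in undifferentiated cells. The mitochondrial pair Shmt2 and Mthfd2 was lower than in vehicle cells by less than 2-fold and was above undifferentiated cells by more than 2-fold. Mthfd1l, the mitochondrial formate-releasing enzyme, overlapped between MIZ and vehicle libraries and was over 4-fold higher in MIZ than in undifferentiated cells. By edgeR's quasi-likelihood test, with Benjamini-Hochberg adjustment over all tested genes and a threshold of 0.05, 4 members were lower in MIZ than in vehicle cells, 2 were higher and 2 did not pass. The background was high, since 71.0% of all tested genes passed in this comparison (35.9% higher and 35.1% lower), so the count of 6 in 8 is not a result about these genes. In vehicle against undifferentiated cells 7 members were higher and 1 was lower, where 77.7% of all genes passed (36.2% higher and 41.5% lower). In MIZ against undifferentiated cells 5 members were higher, 2 were lower and 1 did not pass, where 67.0% of all genes passed (33.7% higher and 33.3% lower). With a fold change above 2 also required, 2 members passed in MIZ against vehicle cells (33.1% of all genes), 5 in vehicle against undifferentiated cells (41.2%) and 4 in MIZ against undifferentiated cells (26.4%).

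**Figure D1:**
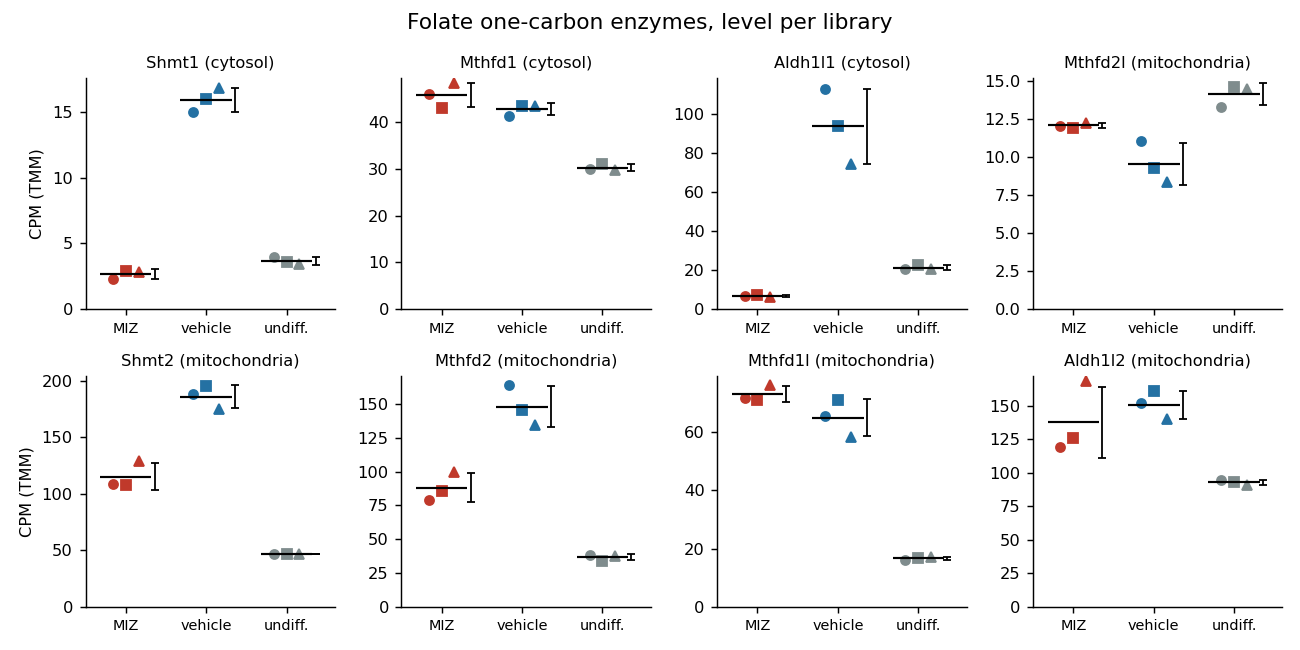
CPM of each folate enzyme gene in each library (marker shape gives the replicate, the line is the mean and the bar the SD of 3 libraries), with MIZ, vehicle and undifferentiated cells from left to right. Aldh1l1 and Shmt1 in MIZ cells (means 6.80 and 2.67 CPM) lie below both other groups, while Mthfd1l in MIZ cells (mean 72.9 CPM) overlaps vehicle cells and lies far above undifferentiated cells (16.6 CPM).

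Upstream sequences are shown for the 5 members whose levels were about 4-fold higher in vehicle than in undifferentiated cells and then parted in MIZ cells. Sequences are RefSeq's for GRCm38.p6, 7 of the 8 members had an entry, and Aldh1l2 had none. For Shmt2 and Mthfd1l the 250 bases before the RefSeq start are printed, and for Mthfd2, Shmt1 and Aldh1l1 a stretch of 30 bases with the promoter elements nearest the start. The RefSeq starts of these last 3 lie within the annotated genes. All read 5′ to 3′ on the gene's strand, and capitals mark the motif matches described below.
Shmt2, chr10:127522445-127522694, minus strand: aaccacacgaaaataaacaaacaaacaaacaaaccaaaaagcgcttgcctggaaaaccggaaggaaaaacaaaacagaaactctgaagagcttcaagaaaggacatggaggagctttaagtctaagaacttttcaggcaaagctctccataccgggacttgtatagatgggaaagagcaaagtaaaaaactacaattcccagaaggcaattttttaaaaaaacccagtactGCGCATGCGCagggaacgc
Mthfd1l, chr10:3972825-3973074, plus strand: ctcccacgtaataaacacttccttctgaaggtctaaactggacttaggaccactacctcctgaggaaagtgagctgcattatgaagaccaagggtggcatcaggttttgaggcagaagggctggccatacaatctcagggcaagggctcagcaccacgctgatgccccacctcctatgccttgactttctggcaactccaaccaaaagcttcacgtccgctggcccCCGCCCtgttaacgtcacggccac
Mthfd2, chr6:83317622-83317651, minus strand: ATTGGctcctacgccggctcaggggCCAAT
Shmt1, chr11:60811283-60811312, minus strand: ATTGGgccgctgtagGGGCGGGGCGGgacc
Aldh1l1, chr6:90550727-90550756, plus strand: atgATTGGagagatctaggctGGGCGGgcc

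The 250 bases before each start were searched on both strands for 5 motifs. The Shmt2 stretch holds an element of the form bound by NRF1, a regulator of genes for mitochondrial proteins (GCGC, any 2 bases, GCGC), 10 to 19 bases before the start, and such a match is present in 4.98% of 32851 promoters of the same length. None of the other 6 members with an entry had that match. Mthfd2 has 3 CCAAT boxes (letters CCAAT, in 33.8% of all promoters), of which a pair in opposite orientations frames the printed stretch. Shmt1 has 1 CCAAT box and 4 GC boxes (letters GGGCGG, in 32.7% of all promoters), and a pair of its GC boxes overlaps by 1 base. Aldh1l1 has 2 CCAAT boxes and 1 GC box, Mthfd1 has 1 of each, and Mthfd1l has 1 GC box on the opposite strand. The composite C/EBP-ATF element to which ATF4 binds (letters TGATGNAA, in 3.45% of all promoters) and the E-box (letters CACGTG, in 6.02%) had no match in these windows. A match here is a string of letters and no measured binding, and elements outside the windows were not searched.

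Serine enters the pathway through the serine hydroxymethyltransferases, SHMT1 in the cytosol and SHMT2 in mitochondria. Shmt1 (ENSMUSG00000020534, chr11:60788104-60811718) had 2.27, 2.93 and 2.81 CPM in MIZ cells, 15.0, 15.9 and 16.8 CPM in vehicle cells and 3.98, 3.60 and 3.41 CPM in undifferentiated cells. The MIZ libraries are the lowest of all 9 and overlap neither other group. Shmt1 fell in MIZ against vehicle cells, with a log2 fold change of -2.58 ± 0.11 (SE, edgeR adjusted p = 4.64e-09), and only 4.67% of tested genes had a lower one. Vehicle cells exceeded undifferentiated cells 4.36-fold (edgeR adjusted p = 9.76e-09), and MIZ cells were below undifferentiated cells by a log2 fold change of -0.46 ± 0.12 (edgeR adjusted p = 0.00573). In the GENCODE M21 annotation of GRCm38, 184 of its 3883 exonic bases are shared with Smcr8 on the opposite strand. The strand setting of the counting is not given in the sources used here, so how reads of the shared stretch were counted, or whether they were left out, is not known. Smcr8 averaged 74.8 CPM in MIZ cells, 93.1 in vehicle cells and 72.9 in undifferentiated cells.

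Shmt2 (ENSMUSG00000025403, chr10:127517123-127522444), whose upstream stretch carries the NRF1 element, had 109, 108 and 129 CPM in MIZ cells, 188, 196 and 175 CPM in vehicle cells and 47.0, 46.3 and 46.6 CPM in undifferentiated cells. The 3 groups do not overlap, and MIZ cells lie between the others. Against vehicle cells the log2 fold change in MIZ cells was -0.69 ± 0.07 (edgeR adjusted p = 4.69e-06), a level 1.62-fold lower. Vehicle cells were higher than undifferentiated cells 3.99-fold and MIZ cells 2.47-fold (edgeR adjusted p = 6.69e-10 and 5.51e-08). An overlap of 32 exonic bases with Ndufa4l2 on the opposite strand is annotated.

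Set per kilobase of annotated exon, so that genes of unequal length can be compared, Shmt2 stood at 37.1 CPM per kb in MIZ cells, 59.9 in vehicle cells and 15.0 in undifferentiated cells, the highest level of the 8 genes in each group. Shmt1 stood at 0.687 CPM per kb in MIZ cells, 4.10 in vehicle cells and 0.943 in undifferentiated cells, the lowest of the 8 in MIZ and undifferentiated cells. The level of Shmt2 was thus 54.1-fold that of Shmt1 in MIZ cells, against 14.6-fold in vehicle cells and 15.9-fold in undifferentiated cells. As a log2 ratio of CPM, Shmt2 to Shmt1 was 5.59, 5.20 and 5.52 in MIZ libraries, 3.65, 3.62 and 3.38 in vehicle libraries and 3.56, 3.69 and 3.77 in undifferentiated libraries. Differentiation with vehicle therefore left this ratio within the spread of the libraries, with a difference of -0.13 and overlapping values, whereas in MIZ cells it was 1.89 log2 units above vehicle cells without overlap.

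Methylene-THF is oxidised to formyl-THF in mitochondria by MTHFD2 or its relative MTHFD2L, and MTHFD1L then releases formate. In the cytosol the single protein MTHFD1 carries dehydrogenase, cyclohydrolase and formyl-THF synthetase activities. Mthfd2 (ENSMUSG00000005667, chr6:83305691-83325908) had 78.9, 85.9 and 99.7 CPM in MIZ cells, 164, 146 and 134 CPM in vehicle cells and 38.5, 34.1 and 37.2 CPM in undifferentiated cells. Its groups do not overlap and stand in the order of Shmt2. In MIZ against vehicle cells Mthfd2 fell by 0.75 ± 0.09 on the log2 scale, or 1.68-fold (edgeR adjusted p = 2.72e-05). It was 4.04-fold higher in vehicle and 2.41-fold higher in MIZ cells than in undifferentiated cells (edgeR adjusted p = 6.59e-09 and 6.3e-07).

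Mthfd2l (ENSMUSG00000029376, chr5:90931117-91021368), which encodes the second mitochondrial dehydrogenase and cyclohydrolase, had a fold change of the opposite sign to that of Mthfd2 in each comparison. It had 12.1, 11.9 and 12.2 CPM in MIZ cells, 11.0, 9.27 and 8.34 CPM in vehicle cells and 13.3, 14.6 and 14.5 CPM in undifferentiated cells, and no groups overlap. Mthfd2l rose in MIZ against vehicle cells by a log2 fold change of 0.35 ± 0.10 (edgeR adjusted p = 0.00794) and was the sole member lower in vehicle than in undifferentiated cells (-0.57 ± 0.10, edgeR adjusted p = 0.000215). Between MIZ and undifferentiated cells its log2 fold change was -0.23, with a 95% interval of -0.44 to -0.02 and an adjusted p of 0.0526 by edgeR that missed the threshold. The log2 ratio of Mthfd2 to Mthfd2l averaged 2.86 ± 0.16 in MIZ cells, 3.96 ± 0.06 in vehicle cells and 1.37 ± 0.15 in undifferentiated cells (SD, n = 3 each), without overlap. Per kilobase, Mthfd2 was 13.9-fold as high as Mthfd2l in MIZ cells, 29.6-fold in vehicle cells and 4.94-fold in undifferentiated cells.

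Mthfd1l (ENSMUSG00000040675, chr10:3973118-4167081) had 71.6, 71.0 and 76.1 CPM in MIZ cells, 65.4, 71.0 and 58.3 CPM in vehicle cells and 16.1, 16.7 and 17.1 CPM in undifferentiated cells. MIZ and vehicle libraries overlap, and both stand far above the undifferentiated ones. Against undifferentiated cells, Mthfd1l was 4.38-fold higher in MIZ and 3.91-fold higher in vehicle cells (edgeR adjusted p = 2.26e-09 and 7.35e-10), and its log2 fold change of 2.13 ± 0.07 in MIZ cells exceeded that of 96.0% of tested genes. The rise in MIZ against vehicle cells was small, 0.17 ± 0.07 on the log2 scale, and passed narrowly (edgeR adjusted p = 0.0463). It no longer passed under 15 of 18 alternative settings, among them DESeq2 (adjusted p = 0.0945) and the fit without vehicle replicate 3 (log2 fold change 0.08, edgeR adjusted p = 0.277), with a range of 0.00164 to 0.277 over all of them.

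Mthfd1 (ENSMUSG00000021048, chr12:76255298-76319803) differed by at most 1.51-fold between any groups. Its levels were 46.0, 43.1 and 48.3 CPM in MIZ cells, 41.3, 43.5 and 43.4 CPM in vehicle cells and 30.0, 31.0 and 29.8 CPM in undifferentiated cells. MIZ and vehicle cells overlap, with a log2 fold change of 0.10 and a 95% interval of -0.02 to 0.21 that missed the threshold (edgeR adjusted p = 0.119). Without MIZ replicate 2 it passed, at 0.14 (edgeR adjusted p = 0.0416), and over all alternatives the adjusted p ran from 0.00145 to 0.459. Mthfd1 was higher than in undifferentiated cells by 0.60 ± 0.05 in MIZ cells and by 0.50 ± 0.05 in vehicle cells on the log2 scale (edgeR adjusted p = 2.21e-06 and 5.4e-06). Per kilobase the level of Mthfd1l was 1.60-fold that of Mthfd1 in MIZ cells and 1.52-fold in vehicle cells, but 0.55-fold in undifferentiated cells. The order of mitochondrial and cytosolic formyl-THF synthetase transcripts thus turned with differentiation, and the log2 ratio of the pair differed between MIZ and vehicle cells by 0.07, with overlap.

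The formyl-THF dehydrogenases ALDH1L1, cytosolic, and ALDH1L2, mitochondrial, take carbon out of the folate pool as carbon dioxide and reduce NADP+. Aldh1l1 (ENSMUSG00000030088, chr6:90486427-90600203) had 6.89, 7.30 and 6.21 CPM in MIZ cells, 113, 93.9 and 74.4 CPM in vehicle cells and 20.7, 22.6 and 20.5 CPM in undifferentiated cells. The groups are far apart, and the vehicle libraries vary more among themselves than those of the other groups. Aldh1l1 fell in MIZ against vehicle cells by 3.78 ± 0.14 on the log2 scale (edgeR adjusted p = 1.49e-09), and only 1.71% of tested genes had a lower log2 fold change. It was 4.40-fold higher in vehicle than in undifferentiated cells and 3.12-fold lower in MIZ than in undifferentiated cells (edgeR adjusted p = 4.14e-08 and 1.87e-06). The genes that share its exons, Gm45901 and Gm15756, had at most 4 counts in any library.

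Aldh1l2 (ENSMUSG00000020256, chr10:83487450-83534140) had 119, 126 and 168 CPM in MIZ cells, 152, 161 and 140.0 CPM in vehicle cells and 94.3, 93.2 and 90.8 CPM in undifferentiated cells. MIZ replicate 3 lies above every vehicle library and the other MIZ libraries lie below them, so MIZ and vehicle cells overlap. Their log2 fold change was -0.13, with a 95% interval of -0.37 to 0.11 (edgeR adjusted p = 0.297). Without MIZ replicate 3 it was -0.31 and passed (edgeR adjusted p = 0.00128), and over all alternatives the adjusted p ran from 0.00128 to 0.976. Aldh1l2 was higher than in undifferentiated cells by 0.57 ± 0.11 in MIZ cells and 0.70 ± 0.11 in vehicle cells on the log2 scale (edgeR adjusted p = 0.000835 and 0.000132). Of its 7503 exonic bases, 1056 are shared with D10Wsu102e on the opposite strand, which averaged 104 CPM in MIZ cells, 73.1 in vehicle cells and 42.4 in undifferentiated cells. The effect of the shared stretch on the Aldh1l2 counts was not tested.

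The pair of dehydrogenases had the widest shift of balance between MIZ and vehicle cells among the 4 pairs compared. The log2 ratio of Aldh1l2 to Aldh1l1 was 4.12, 4.11 and 4.76 in MIZ libraries, 0.43, 0.78 and 0.91 in vehicle libraries and 2.19, 2.04 and 2.15 in undifferentiated libraries. The groups do not overlap, and the mean in MIZ cells was 3.62 above that in vehicle cells and 2.20 above that in undifferentiated cells, while vehicle cells were 1.42 below undifferentiated cells (difference -1.42). Per kilobase, the mitochondrial transcript was 12.1-fold as high as the cytosolic one in MIZ cells, 0.982-fold in vehicle cells and 2.63-fold in undifferentiated cells. Vehicle cells were the one group in which both forms stood at about the same level. Leaving out each library in turn kept all 4 ratio differences of each comparison within the spread of replicates. With 3 libraries per group the limit used fixed that outcome in advance, so it lends these differences no weight.

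**Figure D2:**
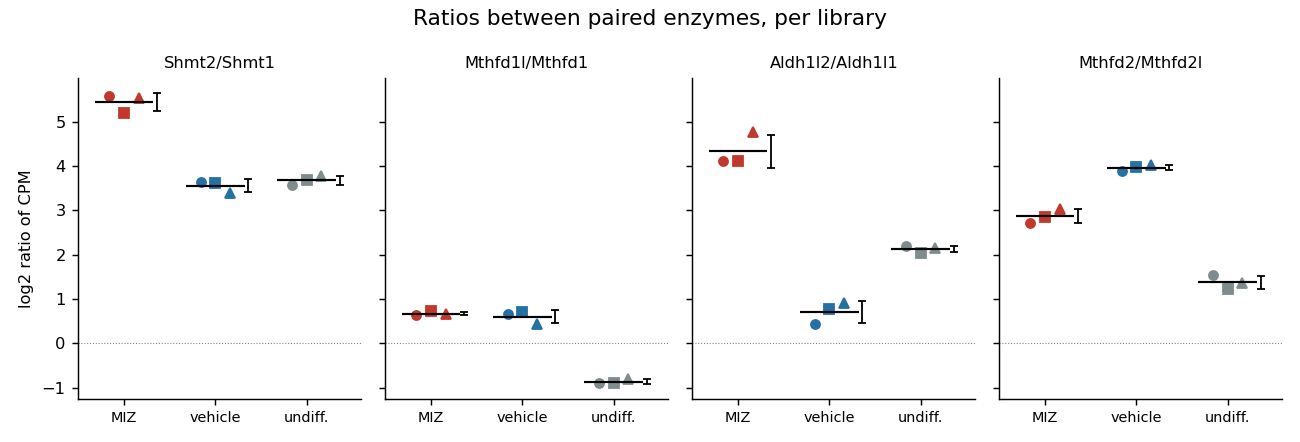
Log2 ratio of CPM of Shmt2 to Shmt1, Mthfd1l to Mthfd1, Aldh1l2 to Aldh1l1 and Mthfd2 to Mthfd2l in each library, with MIZ, vehicle and undifferentiated cells from left to right and the mean and SD of 3 libraries drawn beside the points. The Shmt and Aldh1l ratios are highest in MIZ cells (means 5.44 and 4.33), the Mthfd1l to Mthfd1 ratio is shared by MIZ and vehicle cells (0.67 and 0.60), and the Mthfd2 to Mthfd2l ratio is highest in vehicle cells (3.96).

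Summed over the 3 cytosolic members, the level was 12.5 ± 0.45 CPM per kb in MIZ cells, 34.5 ± 3.78 in vehicle cells and 12.5 ± 0.41 in undifferentiated cells (SD, n = 3 each). MIZ libraries, at 12.1 to 13.0, and undifferentiated libraries, at 12.1 to 12.9, overlap. The equal sums were made of different genes, since Mthfd1 gave 10.3 CPM per kb in MIZ cells and 6.81 in undifferentiated cells, and Aldh1l1 gave 1.51 and 4.71. The 5 mitochondrial members summed to 99.0 ± 11.0 CPM per kb in MIZ cells, 139 ± 9.21 in vehicle cells and 43.7 ± 0.64 in undifferentiated cells, with no overlap between groups. In MIZ cells the order of single levels was Shmt2 (37.1 CPM per kb), Mthfd2 (25.3), Aldh1l2 (18.4), Mthfd1l (16.4) and Mthfd1 (10.3), followed by Mthfd2l (1.82), Aldh1l1 (1.51) and Shmt1 (0.687). Of these neighbours, the libraries of Aldh1l2 and Mthfd1l overlapped. In vehicle cells Aldh1l1 (20.7) instead stood next after Shmt2 and Mthfd2, beside Aldh1l2 (20.1), with overlapping libraries.

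**Figure D3:**
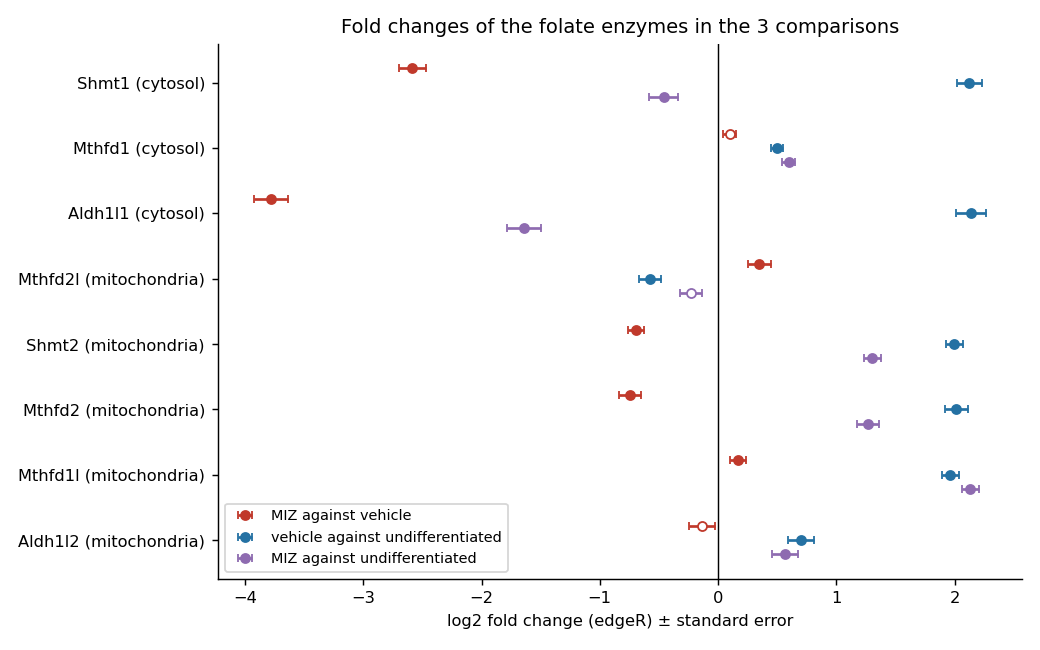
Log2 fold change (edgeR, bars are ± 1 standard error) of each folate enzyme gene in MIZ against vehicle, vehicle against undifferentiated and MIZ against undifferentiated cells, where filled points passed an adjusted p of 0.05 and open points did not. Aldh1l1 and Shmt1 are the lowest in MIZ against vehicle cells (-3.78 and -2.58), and 5 members lie between 1.97 and 2.14 in vehicle against undifferentiated cells.

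In vehicle against undifferentiated cells 5 of the members were higher by nearly the same factor, Shmt1, Shmt2, Mthfd1l, Mthfd2 and Aldh1l1 by 3.91-fold to 4.40-fold. Their log2 fold changes exceeded those of 91.0% to 91.9% of tested genes. Aldh1l2 and Mthfd1 rose less, 1.63-fold and 1.41-fold, and Mthfd2l was 1.49-fold lower. The median log2 fold change of the 8 was 1.98, against -0.08 over all tested genes. In MIZ against undifferentiated cells the median was 0.58, against 0.00 over all genes, and in MIZ against vehicle cells it was -0.41, against 0.02. Libraries of the groups did not overlap for 8 of 8 members in vehicle against undifferentiated cells (80.7% of all genes) and for 8 of 8 in MIZ against undifferentiated cells (74.4%). In MIZ against vehicle cells they did not overlap for 5 of 8 members (72.8%).

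Within MIZ cells, replicate 3 had the highest CPM of the 3 libraries for Shmt2, Mthfd1, Mthfd1l, Mthfd2, Mthfd2l and Aldh1l2, and the lowest for Aldh1l1. Within vehicle cells, replicate 1, the library with the fewest counts, was the highest for Mthfd2, Mthfd2l and Aldh1l1 and the lowest for Shmt1 and Mthfd1. Over the 9 libraries, which fall into 3 groups, log2 CPM of Shmt2 and Mthfd2 had a Pearson correlation of 0.996, Mthfd1 and Mthfd1l of 0.981, and Shmt1 and Aldh1l1 of 0.947. Aldh1l1 and Mthfd1l had one of 0.004. These values describe the pattern over 3 group means and have no further weight.

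Among 11012 other genes with a mean of at least 5 CPM, those most like each member by the same correlation over 9 libraries were found. For Shmt1 they were Slc25a28, Megf9 and Paqr4, and Rtn4rl1 and Epb41 were among the nearest to Aldh1l1. For Shmt2 they were Ibtk, Paqr9 and Gtf2h3, and for Mthfd2 they were Nfe2l1, Bud31 and Psma6. Hacd1, Zfp955b and Plekha3 were the most like Mthfd1l, and Gtf3c2, Fermt2 and Eny2 the most like Mthfd1. Hgf, Spred1 and Tlr1 came nearest to Mthfd2l, and Mettl5, Fam206a and Thumpd1 to Aldh1l2. The correlations ran from 0.970 for Thumpd1 to 0.998 for Slc25a28 and Ibtk.

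Among the carriers that supply serine, 3 differed between MIZ and vehicle cells by more than 5-fold. Slc1a5, a plasma membrane carrier of neutral amino acids, had 190, 191 and 205 CPM in MIZ cells, 1325, 1151 and 1127 CPM in vehicle cells and 123, 113 and 125 CPM in undifferentiated cells, and fell in MIZ against vehicle cells by 2.62 ± 0.07 on the log2 scale (edgeR adjusted p = 1.68e-10). Sfxn1, which carries serine into mitochondria, had 54.4, 56.7 and 62.4 CPM in MIZ cells, 297, 296 and 286 CPM in vehicle cells and 36.5, 36.0 and 35.4 CPM in undifferentiated cells. It was 5.07-fold lower in MIZ than in vehicle cells (edgeR adjusted p = 5.03e-11) and, like Shmt2, higher in MIZ than in undifferentiated cells (log2 fold change 0.68 ± 0.05, edgeR adjusted p = 8.14e-07). Its relative Sfxn3 went the other way, with 128, 127 and 129 CPM in MIZ cells, 21.0, 16.6 and 16.6 CPM in vehicle cells and 82.1, 81.4 and 83.8 CPM in undifferentiated cells, a log2 fold change of 2.84 ± 0.08 in MIZ against vehicle cells (edgeR adjusted p = 1.57e-10). Libraries of MIZ and vehicle cells do not overlap for any of these carriers.

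**Figure D4:**
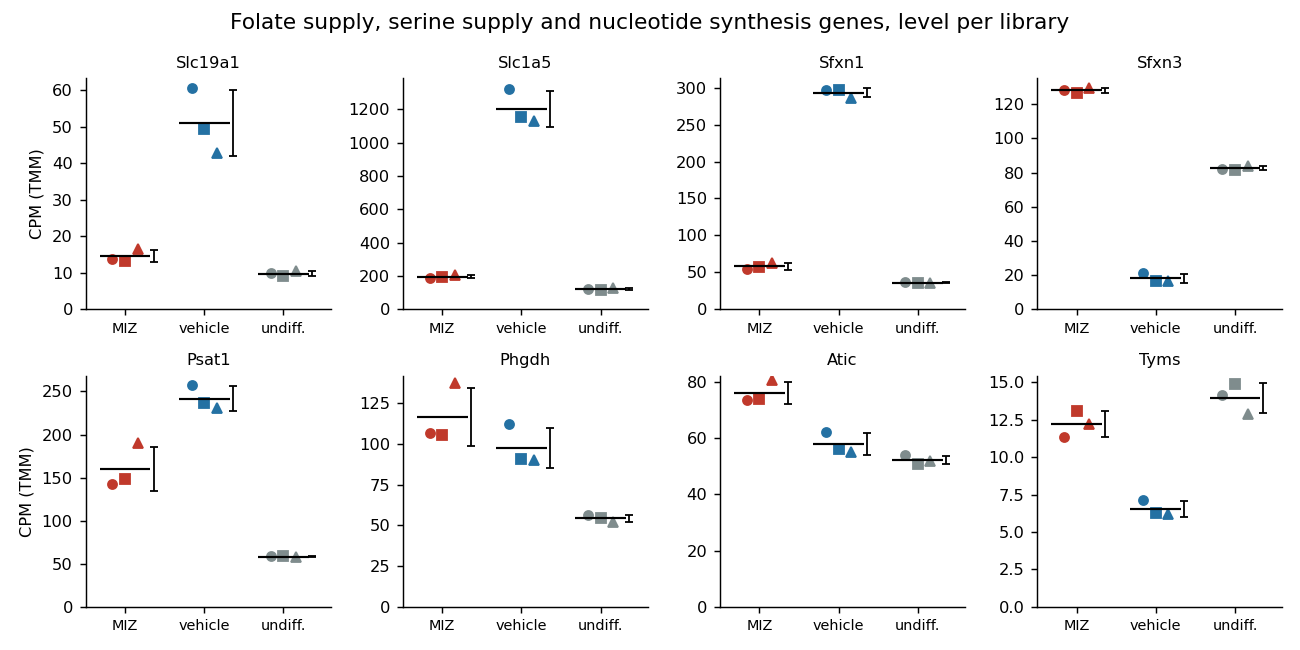
CPM in each library of genes that feed the folate enzymes or use their products, with MIZ, vehicle and undifferentiated cells from left to right, markers by replicate and the mean and SD of 3 libraries. Sfxn1 and Slc1a5 are highest in vehicle cells (means 293 and 1201 CPM) and Sfxn3 is lowest there (18.1 CPM), against 57.8, 195 and 128 CPM in MIZ cells.

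Of the 3 enzymes that make serine from a glycolytic intermediate, 2 fell in MIZ against vehicle cells and 1 did not pass. Phgdh, the first of them, had 107, 106 and 138 CPM in MIZ cells and 112, 90.8 and 90.5 CPM in vehicle cells, which overlap (log2 fold change 0.26 ± 0.11, edgeR adjusted p = 0.0539). Psat1, the transaminase, had 142, 148 and 189.9 CPM in MIZ cells and 258, 237 and 231 CPM in vehicle cells and fell by 0.60 ± 0.09 on the log2 scale (edgeR adjusted p = 0.000175). Psph, the phosphatase, fell by 0.28 ± 0.08 with overlapping libraries (edgeR adjusted p = 0.00947), and its exons are partly shared with Cct6a. All 3 were higher in MIZ than in undifferentiated cells, by 1.10, 1.46 and 1.33 on the log2 scale in the order of the pathway. As for Shmt2, Mthfd2 and Aldh1l2, MIZ replicate 3 was the highest MIZ library for each. Of the 8 genes of serine synthesis and transport, 5 were lower, 2 higher and 1 did not pass in MIZ against vehicle cells (median -0.36), and 7 were higher, 0 lower and 1 did not pass in MIZ against undifferentiated cells (median 0.69). Over all tested genes, 35.1% were lower and 35.9% higher in the former comparison, and 33.7% were higher and 33.3% lower in the latter.

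Genes that bring in and hold folate were split too. The reduced folate carrier Slc19a1 had 13.7, 13.3 and 16.4 CPM in MIZ cells, 60.7, 49.3 and 42.8 CPM in vehicle cells and 9.93, 8.97 and 10.4 CPM in undifferentiated cells. It fell 3.51-fold in MIZ against vehicle cells (edgeR adjusted p = 2.12e-07), without overlap, and was the single one of 7 uptake and retention genes to be lower. Of all tested genes, 35.1% were lower and 35.9% higher in that comparison. Another 4 uptake and retention genes rose, among them Folr2, a folate receptor (0.75 on the log2 scale), Fpgs, which adds the glutamate tail that keeps folate in cells (0.32), and Ggh, which removes it (0.25). For Slc25a32, the mitochondrial folate carrier, the log2 fold change was 0.09 ± 0.07 (edgeR adjusted p = 0.285).

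Among enzymes that use the products of the pathway, Gart and Atic put formyl groups into the purine ring upstream of the step that MIZ inhibits. They had 59.7 to 66.6 and 73.7 to 80.6 CPM in MIZ cells, against 50.5 to 57.3 and 55.0 to 62.3 CPM in vehicle cells. Both rose, by 0.26 ± 0.06 and 0.40 ± 0.06 on the log2 scale (edgeR adjusted p = 0.00231 and 0.0001). Tyms, thymidylate synthase, averaged 12.2 CPM in MIZ cells, 6.54 in vehicle cells and 14.0 in undifferentiated cells (0.91 ± 0.09 in MIZ against vehicle cells, edgeR adjusted p = 5.49e-06), and is known to be induced as cells enter S phase. Of 18 proliferation genes, 10 were higher in MIZ than in vehicle cells, 1 was lower and 7 did not pass, while 18 of 18 were lower in MIZ than in undifferentiated cells. Among all tested genes, 35.9% were higher and 35.1% lower against vehicle cells, and 33.3% were lower against undifferentiated cells. The part of proliferation in the folate gene differences was not tested.

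Glycine, the other product of the SHMT step, can also give a carbon to mitochondrial folate through the glycine cleavage system. None of 6 tested genes for glycine cleavage and methyl-glycine oxidation rose in MIZ against vehicle cells, 5 fell and 1 did not pass (median -1.35). Among those that fell, 1 had at most 22 counts in any library. Of all tested genes, 35.9% rose and 35.1% fell. Dld, a subunit shared with pyruvate dehydrogenase and other complexes, had 77.5 to 90.7 CPM in MIZ cells and 393 to 453 CPM in vehicle cells. It was 4.99-fold lower, Gcsh, the lipoyl-carrying protein, was 2.27-fold lower, and the decarboxylase Gldc was 2.89-fold lower, with at most 2.88 CPM in any library. In MIZ against undifferentiated cells 2 of the 6 were higher, 1 was lower and 3 did not pass, where 33.7% of all genes were higher and 33.3% lower.

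In the methionine cycle and transsulfuration, which take up methyl groups and serine, 7 of 9 tested genes fell in MIZ against vehicle cells, 1 rose and 1 did not pass (median -0.70). Of all tested genes, 35.1% fell and 35.9% rose. Cth, which makes cysteine, had 7.70, 8.47 and 11.3 CPM in MIZ cells, 68.0, 54.0 and 40.9 CPM in vehicle cells and 3.05, 3.03 and 2.61 CPM in undifferentiated cells, a 5.94-fold fall in MIZ against vehicle cells (edgeR adjusted p = 2.88e-07). Mat2a and Mat2b, for subunits of the enzyme that makes S-adenosylmethionine, fell by 0.70 and 0.73 on the log2 scale. Ahcyl2, a relative of the hydrolase of S-adenosylhomocysteine, fell by 2.06. Against undifferentiated cells 6 of the 9 were higher in MIZ cells and 2 were lower, where 33.7% of all genes were higher and 33.3% lower.

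Mthfd2, Shmt2, Aldh1l2, Psat1 and Phgdh are among the known targets of ATF4, a transcription factor of the amino acid and integrated stress responses. Among 19 tested genes of that response, 12 were lower in MIZ than in vehicle cells, none were higher and 7 did not pass, with a median log2 fold change of -0.47. Of all tested genes, 71.0% passed there, 35.1% lower and 35.9% higher. Against undifferentiated cells, all 19 were higher in MIZ cells (median 1.04), as all 19 were in vehicle cells (median 1.34). The shares of all genes that were higher there were 33.7% and 36.2%. Atf4 itself had 244, 239 and 243 CPM in MIZ cells, 358, 349 and 339.7 CPM in vehicle cells and 149, 144 and 145 CPM in undifferentiated cells, so its groups stood in the order of Shmt2, Mthfd2 and Psat1. Aldh1l2 had means in that order (138 CPM in MIZ, 151 in vehicle and 92.8 in undifferentiated cells), but its MIZ and vehicle libraries overlapped. Phgdh did not share the order, with 117 CPM on average in MIZ cells and 97.8 CPM in vehicle cells, also with overlap. The other mitochondrial members did not share it either. Mthfd1l averaged 72.9 CPM in MIZ and 64.9 in vehicle cells, and Mthfd2l 12.1 and 9.55. Asns, asparagine synthetase, fell by 0.56 ± 0.09 on the log2 scale in MIZ against vehicle cells (edgeR adjusted p = 0.000134). A lower log2 fold change was found for 27.55% of tested genes. The largest falls on the list were those of Stc2 (-2.27), a secreted glycoprotein, and Vldlr (-2.21), a lipoprotein receptor, and Trib3 and Chac1 fell by 1.02 and 0.69. The ATF4 list was chosen with earlier results of these libraries known, and ATF4 protein was not measured here. The part of ATF4 in the folate gene differences was not tested.

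**Figure D5:**
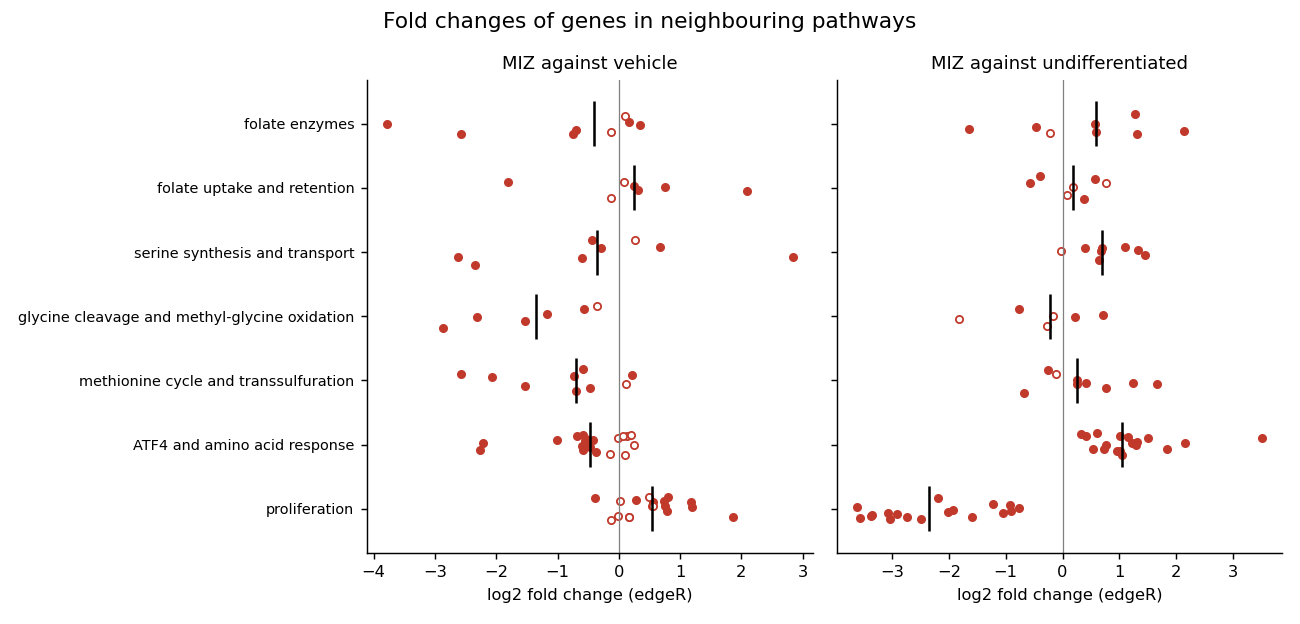
Log2 fold change of each tested gene in the folate, serine, glycine, methionine, ATF4 and proliferation lists, for MIZ against vehicle and MIZ against undifferentiated cells, with black lines at the list medians and filled points past an adjusted p of 0.05. The ATF4 genes run from -2.27 to 0.25 against vehicle cells (median -0.47) and all lie above 0 against undifferentiated cells (median 1.04).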

How the data were processed

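Total RNA was depleted of ribosomal RNA, and the paper's methods also name poly-A selection of mRNA. The authors trimmed reads (Trim Galore 0.6.7), aligned them to GRCm38 (mm10) with STAR and counted them per gene. The authors deposited raw counts, 1 library per file, without normalization. The methods name STAR's gene counting and the labels HTSeq, and the annotation release and strand setting are not given in the sources used here. Symbols were found for 32158 of 32285 Ensembl identifiers, and exons came from GENCODE M21.

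A gene was tested when 3 or more libraries held 5 or more of its counts (17173 genes, with 15112 left out) in 1 edgeR 4.0.16 quasi-likelihood model of all 9 libraries (R 4.3.3, limma 3.58.1, TMM scaling, biological coefficient of variation 0.0806). P-values were adjusted over all tested genes (Benjamini-Hochberg). Intervals of 95% use edgeR's degrees of freedom. CPM use TMM library sizes, and correlations use log2 CPM with a prior count of 2. Ratios between members and sums over members were described by their values and overlap, without a test; an exact permutation test of 3 with 3 libraries cannot reach a p below 0.1.

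Alternatives were other scalings, other filters, DESeq2 1.42.0, a block for the replicate number, removal of the mitochondrially encoded genes, models of just the 6 libraries in a comparison, and removal of each library in turn. Named genes were the members, up to 4 genes of each list with the largest change between MIZ and vehicle (among called genes that reach 5 CPM on average in any group), the 3 genes most like each member, and 12 genes at neighbouring steps. Members and lists were chosen with earlier results of these data known. Some genes that this rule selects are not reported here. Ddit3 has 2 identifiers and was left out of its list. Figures used Python 3.11.15 and matplotlib 3.10.9.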

Additional observations from a re-analysis of the deposited data

How the results depend on the processing

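Of 432 refitted values, 24 member fold changes under 18 alternatives each, 403 kept their direction and side of the threshold. The others belonged to 4 fold changes: Mthfd1, Mthfd1l and Aldh1l2 in MIZ against vehicle cells and Mthfd2l in MIZ against undifferentiated cells, which passed under 9 alternatives. With library sizes alone, which moved the median log2 fold change of all genes by 0.14 in MIZ against vehicle and by -0.18 in vehicle against undifferentiated cells, Aldh1l2 turned from -0.13 to 0.0039 (edgeR adjusted p = 0.976). With RLE size factors or DESeq2, 1 member was higher and 4 were lower in MIZ than in vehicle cells, in place of 2 and 4. The causes were not tested.

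When a fold change above 2 was also required, 2, 5 and 4 members passed in MIZ against vehicle, vehicle against undifferentiated and MIZ against undifferentiated cells, and 5681, 7067 and 4533 of all genes, in place of 12190, 13339 and 11505.

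Whether replicate numbers mark shared animals or pools is not stated, and they were not treated as pairs. Deviations from group means correlated at -0.134 to 0.156 between same-numbered libraries of different groups. Between different-numbered libraries they correlated at -0.236 to 0.204. Such values from 3 libraries per group cannot tell whether the libraries were paired. With a replicate block, edgeR called 5, 8 and 7 members in the same order of comparisons, in place of 6, 8 and 7, and 12020, 13162 and 11281 genes, and the rise of Mthfd1l in MIZ against vehicle cells was 0.17 with an adjusted p of 0.0654. Leaving out 1 library at a time gave 5 to 6, 8 and 7 to 8 members called. Groups of 3 are too small to search for outlying libraries.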
